A study of Mus musculus with 12 samples.

Results

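Expression of 10 genes that carry out or oppose the transcription program of the MLL-AF9 oncoprotein was followed in leukaemia cells of mice through chemotherapy. The genes were Kmt2a, Men1, Psip1, Dot1l, Mllt1, Mllt3, Aff1, Aff4, Ezh2 and Kdm1a. They were taken by symbol from the 24881 entries with an estimate in the deposited tables, whatever their values. All 10 were found, and 9 of them were among the 11019 genes that reached 1 FPKM in at least 3 libraries and were tested. FPKM scales the fragments of a gene to its transcript length and to the size of the library, so levels of different genes were set side by side. Differences between groups still moved with length and GC content.

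The cells were GFP-positive acute myeloid leukaemia cells from bone marrow, all with an MLL-AF9 transgene, and 1 RNA-seq library was made per mouse. The relapse group (n = 4) was sampled 10 days after doxorubicin with cytarabine, the iCT group (n = 3) 3 days after the same drugs, and the vehicle group (n = 5) received vehicle. Doxorubicin poisons topoisomerase II in dividing cells and cytarabine is a nucleoside analogue that blocks DNA synthesis. The sources used here do not say how the transgene was delivered, which promoter drives it, or whether the leukaemias of different mice came from 1 donor.

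MLL, the product of Kmt2a, is a histone methyltransferase that maintains active promoters, and in leukaemia its amino-terminal part is joined to a partner such as AF9, the product of Mllt3. Menin and LEDGF hold both MLL and the fusion on chromatin. The AF9 part draws in DOT1L, which methylates histone H3 within gene bodies, and the AFF scaffolds of the super elongation complex, which bring the kinase P-TEFb to paused RNA polymerase II. EZH2 writes the repressive H3 mark of Polycomb, and LSD1, the product of Kdm1a, removes methyl groups from H3; both enzymes are known to sustain MLL-AF9 leukaemia in mice.

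None of the 9 tested genes differed between groups at an adjusted p under 0.05 in any of the 3 comparisons. Over all genes 0% passed in relapse against vehicle, 9.62% in iCT against vehicle and 9.72% in relapse against iCT. The clearest pattern was in relapse against vehicle: Kmt2a, Dot1l, Aff1 and Kdm1a were higher in every relapse mouse than in every vehicle mouse, by 1.31-fold to 1.53-fold in group averages on the log2(FPKM + 1) scale, as were 9.72% of all tested genes. Trends with transcript length and GC content ran through that comparison, and once they were removed only Kdm1a kept its groups apart, with differences of 0.20 for Kmt2a (0.62 before), 0.10 for Dot1l (0.44 before) and 0.15 for Aff1 (0.44 before). Ezh2 had its lowest mean in iCT, at 33.0 FPKM, with iCT mouse 1 at 17.7 FPKM on 15.3 implied fragments. The values of iCT mice 2 and 3, 43.7 and 37.5 FPKM, lay within the vehicle range of 35.8 to 57.2 FPKM. Among the ratios of related genes examined, that of Aff1 to Aff4 was picked because it alone set iCT apart. This ratio was higher in every iCT mouse than in every other mouse, except after quantile normalization, and its difference was not tested. Kmt2a and Mllt3, the genes that give the fusion its ends, were the 2 lowest of the 10. Aff1, Dot1l, Aff4, Kmt2a and Mllt3, the lowest in level, also have the longest transcripts of the 10.

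Depth was uneven. The intervals deposited with the FPKM values implied 2780819 to 7484368 fragments in the relapse libraries, 6227708 and 8359793 in 2 iCT libraries and 1225254 to 6171368 in the vehicle libraries, but only 361914 in the library of iCT mouse 1. In that library 8 of the 10 genes rested on fewer than 20 implied fragments or on none. The sorted cells expressed leukaemia markers in all groups: 10 myeloid progenitor and leukaemia markers summed to 11565 to 16180 FPKM in relapse, 13172 to 17906 in iCT and 13380 to 16557 in vehicle, led by Elane, Prtn3 and Ctsg. Sums of 7 osteoclast markers were 14.3 to 77.3 FPKM in relapse, 143 to 662 in iCT and 11.7 to 26.6 in vehicle, those of 10 tissue macrophage markers were 101 to 122, 150 to 278 and 142 to 186 FPKM, and those of 8 mature neutrophil markers were 4162 to 9485, 8852 to 12109 and 2666 to 9682 FPKM in the same groups. Adgre1 and Vcam1 led the macrophage sums, at means of 61.3 and 50.8 FPKM over the 12 libraries. Of 7 tested macrophage markers, 5 passed as higher and 1 as lower in iCT against vehicle, where 9.62% of all genes passed. Their median log2 difference was 2.02 (all genes -0.08). Oscar, Dcstamp and Calcr of the osteoclast list and Vsig4 of the macrophage list were at 0 in every vehicle library. The part of these cells in the iCT values was not tested. In bulk RNA, fewer cells of a type and less RNA per cell cannot be told apart.

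The 10 genes spanned a wide range of levels. Averaged over the 12 libraries, Ezh2 stood at 43.0 FPKM, followed by Kdm1a at 17.2, Mllt1 at 14.9, Psip1 at 14.2, Men1 at 13.3, Aff1 at 11.5, Dot1l at 7.13, Aff4 at 2.90, Kmt2a at 1.83 and Mllt3 at 0.520 FPKM. The genes from Aff1 down to Mllt3 also have the longest transcripts of the 10, at 6069 to 16470 bases against 2787 to 3636 bases for the others. The part of length in this order was not tested. Ezh2 was above Kdm1a in 11 of the 12 libraries. Aff1 lay above Dot1l, Dot1l above Aff4, Aff4 above Kmt2a and Kmt2a above Mllt3 in all 12. The 5 neighbours from Kdm1a to Aff1 were not ordered in this way: Kdm1a exceeded Mllt1 in 7 libraries, Mllt1 exceeded Psip1 in 8, Psip1 exceeded Men1 in 8 and Men1 exceeded Aff1 in 9, so their order lay within the spread between mice.

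**Figure D1:**
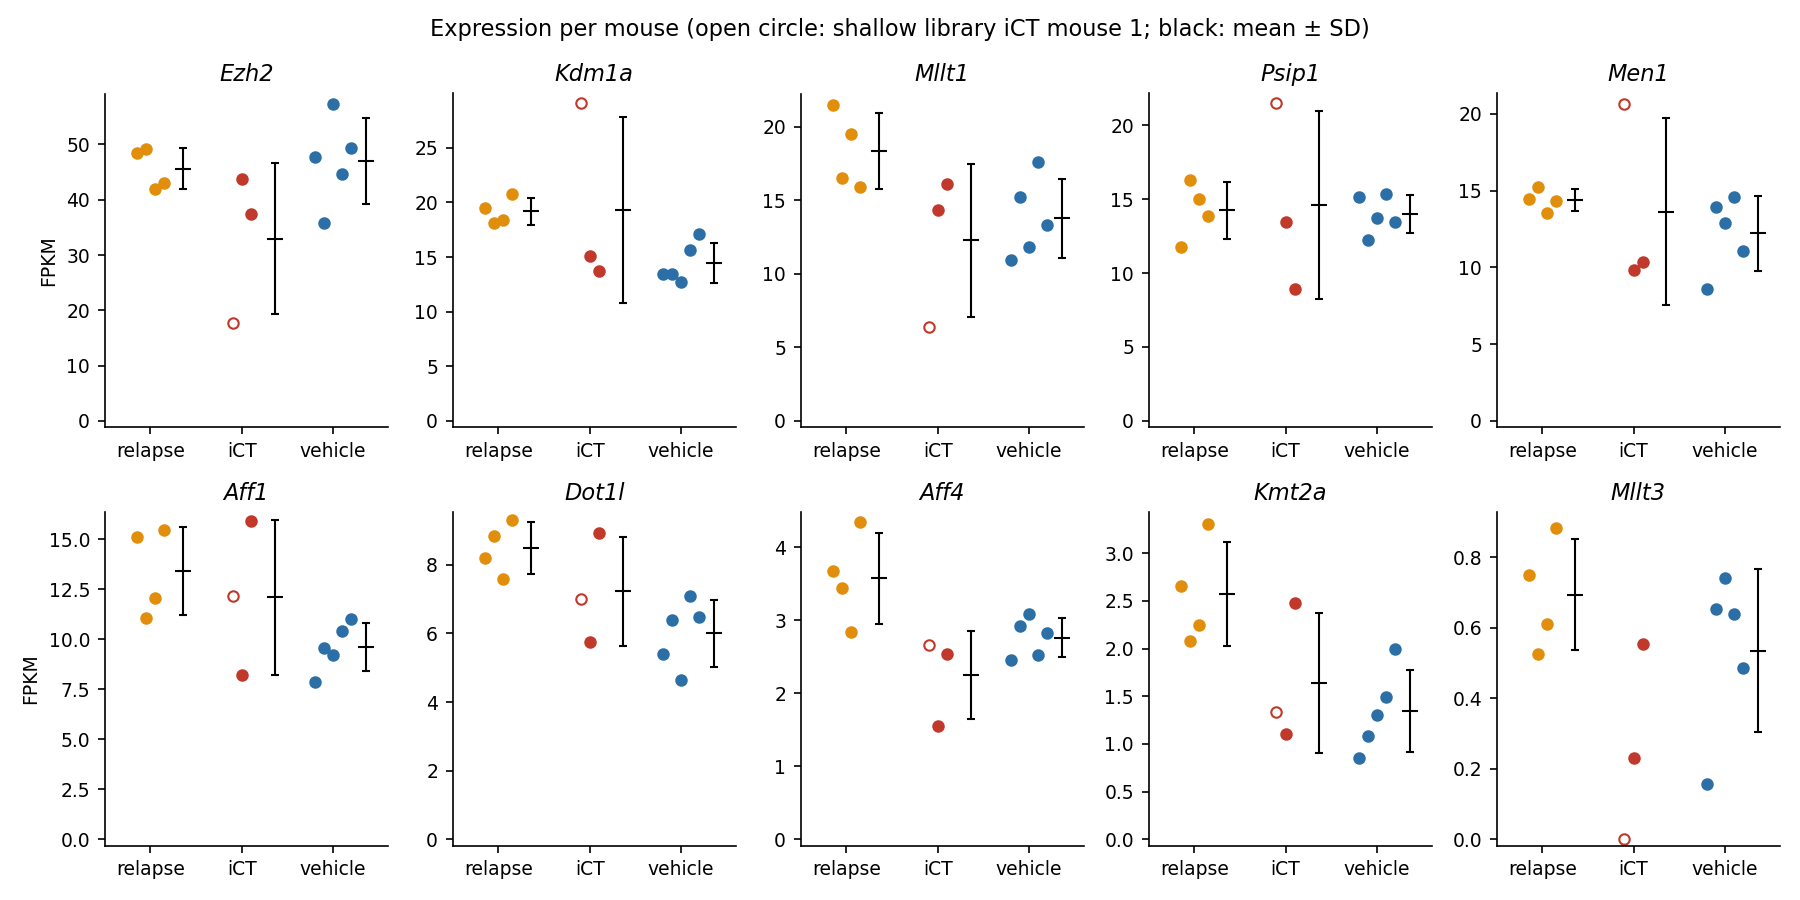
FPKM of each gene (vertical axis, from 0) in every mouse of the relapse, iCT and vehicle groups, with mean and SD beside the points; no mean is drawn for Mllt3 in iCT, where 1 library is listed at 0. Kmt2a, Dot1l, Aff1 and Kdm1a have all 4 relapse points above all 5 vehicle points, and the open circle marks iCT mouse 1, whose library was the shallowest.

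Kmt2a (chr9:44803355-44881274, GRCm38) encodes MLL itself. Its CXXC domain binds unmethylated CpG, and its promoter is shown because it is itself such a CpG-rich region. The RefSeq window (GRCm38.p6) runs from 250 bases before to 50 bases after the start site, chr9:44881240-44881539, minus strand, with each CG in capitals.
Kmt2a promoter: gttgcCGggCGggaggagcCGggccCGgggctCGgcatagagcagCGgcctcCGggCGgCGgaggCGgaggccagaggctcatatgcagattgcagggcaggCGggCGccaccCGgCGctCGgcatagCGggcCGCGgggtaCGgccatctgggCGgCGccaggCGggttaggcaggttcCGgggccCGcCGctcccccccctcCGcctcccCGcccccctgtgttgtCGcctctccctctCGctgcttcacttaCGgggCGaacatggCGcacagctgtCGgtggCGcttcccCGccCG
It held 36 CpG, against a median of 7 and an upper quartile of 20 over the 32851 windows of the same length in the table.

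Kmt2a had 2.66, 2.08, 2.25 and 3.31 FPKM in relapse mice 1 to 4. It had 1.33, 1.10 and 2.47 FPKM in iCT mice 1 to 3 and 0.856, 1.08, 1.30, 1.49 and 1.99 FPKM in vehicle mice 1 to 5. The lowest relapse mouse thus lay just above the highest vehicle mouse, while iCT mouse 3 lay within the relapse range and the other two iCT mice within the vehicle range. Relapse exceeded vehicle by 0.62 on the log2(FPKM + 1) scale (SE 0.20, 95% interval 0.17 to 1.06), with an adjusted p of 0.203 in limma. The difference from vehicle in iCT was 0.15 (95% interval -0.33 to 0.63, adjusted p = 0.661) and became -0.063 without iCT mouse 3. Relapse exceeded iCT by 0.46 (95% interval -0.04 to 0.96, adjusted p = 0.203). A gene-level FPKM cannot separate reads of the transgene's MLL part from those of the mouse gene, and the sources used here do not name the species of the transgene.

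Mllt3 (chr4:87769925-88033407) encodes AF9, the fusion partner. RefSeq gives it 2 start sites that differ sharply in CpG, and both windows are printed to show this, each on the minus strand with CG in capitals. The first lies at chr4:88033358-88033657 and the second, within the gene, at chr4:87806274-87806573.
Mllt3 promoter, outer: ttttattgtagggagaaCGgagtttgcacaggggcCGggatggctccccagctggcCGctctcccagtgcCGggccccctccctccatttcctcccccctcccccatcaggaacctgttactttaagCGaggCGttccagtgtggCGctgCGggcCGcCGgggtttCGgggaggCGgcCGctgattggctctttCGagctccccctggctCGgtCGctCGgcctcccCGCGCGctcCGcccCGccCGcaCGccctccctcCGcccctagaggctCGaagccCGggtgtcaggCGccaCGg
Mllt3 promoter, inner: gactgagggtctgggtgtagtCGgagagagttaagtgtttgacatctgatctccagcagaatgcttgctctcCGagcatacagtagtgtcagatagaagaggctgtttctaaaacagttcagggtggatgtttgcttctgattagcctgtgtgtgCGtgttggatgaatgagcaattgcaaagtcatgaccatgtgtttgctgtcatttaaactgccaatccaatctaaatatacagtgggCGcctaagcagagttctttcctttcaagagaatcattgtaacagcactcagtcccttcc
The outer window held 29 CpG and the inner window 4.

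Mllt3 stayed under 1 FPKM in all 12 libraries and was not tested. It had 0.751, 0.527, 0.612 and 0.885 FPKM in relapse mice 1 to 4. In iCT it was listed at 0 in mouse 1 and had 0.231 and 0.555 FPKM in mice 2 and 3. Vehicle mice 1 to 5 had 0.156, 0.653, 0.742, 0.638 and 0.486 FPKM. The 3 groups overlapped, and no library held more than 21.4 implied fragments of the gene. Reads of the AF9 end of the transgene would fall on Mllt3 only as far as the transgene matches the mouse gene.

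Men1 (chr19:6334979-6340894), which encodes menin, had 14.5, 15.2, 13.5 and 14.3 FPKM in relapse mice. It had 20.7, 9.86 and 10.4 FPKM in iCT mice and 8.56, 14.0, 12.9, 14.6 and 11.1 FPKM in vehicle mice. The relapse mice were closely grouped and lay within or just above the vehicle range. Men1 differed from vehicle by 0.24 in relapse (95% interval -0.20 to 0.69, adjusted p = 0.637) and by 0.09 in iCT (95% interval -0.39 to 0.58, adjusted p = 0.802). Without iCT mouse 1, the iCT difference was -0.23. Relapse exceeded iCT by 0.15 (95% interval -0.36 to 0.66).

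Psip1 (chr4:83455681-83486448) encodes LEDGF, whose PWWP domain reads methylated histone H3 and which binds the MLL-menin pair. It had 11.8, 16.3, 15.0 and 13.8 FPKM in relapse, 21.5, 13.5 and 8.91 FPKM in iCT and 15.1, 12.3, 13.8, 15.4 and 13.4 FPKM in vehicle mice. Its group means were the closest of the tested genes, at 14.2 ± 1.92, 14.6 ± 6.36 and 14.0 ± 1.28 FPKM in relapse, iCT and vehicle (SD, n = 4, 3 and 5). The difference from vehicle was 0.02 in relapse (95% interval -0.41 to 0.44) and -0.02 in iCT (95% interval -0.48 to 0.45), and relapse differed from iCT by 0.03 (95% interval -0.45 to 0.52).

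Dot1l (chr10:80755206-80794347), the only known enzyme for methylation of its site in the H3 core, had 8.20, 8.83, 7.57 and 9.30 FPKM in relapse mice. It had 7.00, 5.75 and 8.91 FPKM in iCT mice and 5.39, 6.39, 4.66, 7.10 and 6.48 FPKM in vehicle mice. All relapse mice lay above all vehicle mice, and iCT overlapped both. The log2 difference of relapse from vehicle was 0.44 (SE 0.15, 95% interval 0.11 to 0.78), with an adjusted p of 0.219 in limma. That of iCT from vehicle was 0.23 (95% interval -0.14 to 0.59, adjusted p = 0.375), and that of relapse from iCT was 0.22 (95% interval -0.16 to 0.60, adjusted p = 0.413).

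Mllt1 (chr17:56892611-56935388) encodes ENL, the YEATS-domain reader of acetylated histones and close relative of AF9. It had 21.5, 16.5, 19.5 and 15.9 FPKM in relapse mice, 6.35, 14.4 and 16.1 FPKM in iCT mice and 10.9, 15.2, 11.8, 17.6 and 13.3 FPKM in vehicle mice. The lowest relapse mouse lay below the highest mouse of each other group. Relapse exceeded vehicle by 0.40 (95% interval -0.10 to 0.90, adjusted p = 0.453). The excess over iCT was 0.63 (SE 0.26, 95% interval 0.06 to 1.19, adjusted p = 0.138). The iCT difference from vehicle was -0.23 (adjusted p = 0.556), and without iCT mouse 1, whose value rested on 9 implied fragments, it was 0.15, while the difference of relapse from iCT was 0.25. Mllt1 stood above Mllt3 in every library with a value: the Mllt1 to Mllt3 ratio within a library was 18.0 to 31.8 in relapse, 29.0 and 62.2 in the 2 iCT libraries with a value and 15.9 to 70.0 in vehicle.

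Aff1 and Aff4 encode AF4 and its relative, the scaffolds on which the super elongation complex assembles. Aff1 (chr5:103754162-103855322) had 15.1, 11.04, 12.1 and 15.5 FPKM in relapse mice. In iCT mice it had 12.2, 8.20 and 15.9 FPKM, and in vehicle mice 7.86, 9.56, 9.19, 10.4 and 11.02 FPKM. The relapse and vehicle groups met almost exactly, with relapse mouse 2 just above vehicle mouse 5. The difference was 0.44 (SE 0.18, 95% interval 0.05 to 0.82, adjusted p = 0.286). In iCT the difference from vehicle was 0.27 (95% interval -0.15 to 0.69, adjusted p = 0.363), and relapse exceeded iCT by 0.17 (95% interval -0.27 to 0.61).

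Aff4 (chr11:53350767-53421830) had 3.67, 3.45, 2.83 and 4.34 FPKM in relapse mice. It had 2.65, 1.56 and 2.54 FPKM in iCT mice and 2.45, 2.92, 3.08, 2.53 and 2.82 FPKM in vehicle mice. Here the relapse mice all lay above the iCT mice, while relapse and vehicle overlapped. The difference of relapse from iCT was 0.50 (SE 0.18, 95% interval 0.10 to 0.90, adjusted p = 0.0999). With precision weights, which rest on the fragments expected for the gene at the depth of each library, the difference was 0.55 with an adjusted p of 0.0414. Relapse differed from vehicle by 0.27 (95% interval -0.07 to 0.62, adjusted p = 0.461) and iCT by -0.23 (95% interval -0.61 to 0.15, adjusted p = 0.395).

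Of 5 ratios between related genes, that of the AFF scaffolds is described because its iCT values overlapped neither other group. Relapse and vehicle overlapped. Within each library the log2 ratio of Aff1 to Aff4 was 2.04, 1.68, 2.09 and 1.83 in relapse, 2.19, 2.40 and 2.65 in iCT and 1.68, 1.71, 1.58, 2.04 and 1.96 in vehicle. All 3 iCT mice thus lay above all 9 others, with mean log2 differences of 0.62 for iCT minus vehicle and -0.50 for relapse minus iCT. In linear terms Aff1 was 3.20 to 4.26 times Aff4 in relapse, 4.58 to 6.27 times in iCT and 2.98 to 4.12 times in vehicle. The lowest iCT value was that of mouse 1, whose Aff4 level rested on 11 implied fragments. Multiplying a library by a factor leaves this ratio as it is, but other processing does not, and the pair differs in length and in GC content (50.7% in Aff1, 44.5% in Aff4). As a difference on the log2(FPKM + 1) scale it was 1.44 to 1.79 in relapse, 1.85 to 2.26 in iCT and 1.32 to 1.69 in vehicle. With length and GC trends removed, an alternative chosen after seeing the data, it was 1.41 to 1.76, 1.79 to 2.19 and 1.37 to 1.74 in the same groups. After quantile normalization, chosen likewise, the groups overlapped, at 1.48 to 1.83 in relapse, 1.58 to 2.31 in iCT and 1.30 to 1.73 in vehicle. The ratio does not show which gene of the pair moved, and its difference was not tested. No share of other gene pairs that set iCT apart is placed beside it. The other 4 ratios examined (Mllt1 to Mllt3, Ezh2 to Ezh1, Kmt2a to Kmt2b, Kmt2a to Men1) overlapped between groups in every comparison.

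**Figure D2:**
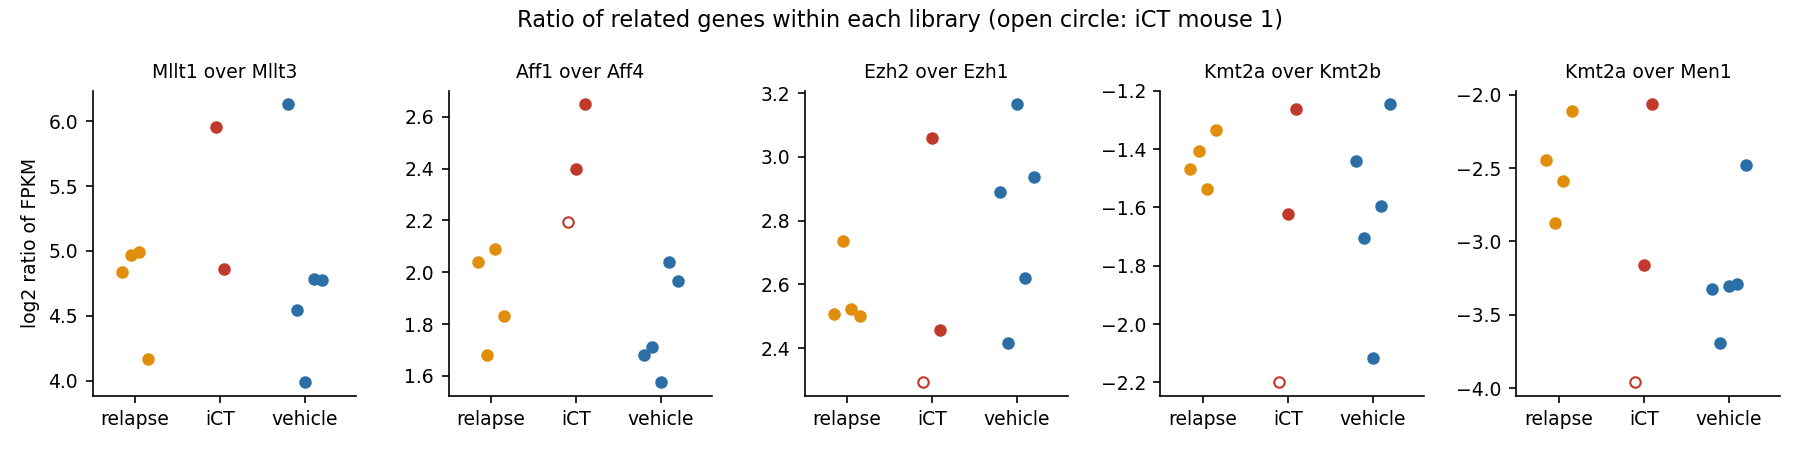
Log2 ratio of FPKM of related genes within each library (vertical axis) for relapse, iCT and vehicle mice, 1 point per mouse. Of these ratios of FPKM as deposited, only for Aff1 over Aff4 do the iCT points (2.19 to 2.65) lie clear of the relapse and vehicle points (1.58 to 2.09).

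Ezh2 (chr6:47530274-47595030), the catalytic subunit of PRC2 and a known E2F target in dividing cells, is shown with its promoter because it alone of the 9 genes in the promoter table held an E2F motif. The window is chr6:47594981-47595280, minus strand, and the motif TTTGGCGC is in capitals, beginning at base 4 counted from the start site as 1.
Ezh2 promoter: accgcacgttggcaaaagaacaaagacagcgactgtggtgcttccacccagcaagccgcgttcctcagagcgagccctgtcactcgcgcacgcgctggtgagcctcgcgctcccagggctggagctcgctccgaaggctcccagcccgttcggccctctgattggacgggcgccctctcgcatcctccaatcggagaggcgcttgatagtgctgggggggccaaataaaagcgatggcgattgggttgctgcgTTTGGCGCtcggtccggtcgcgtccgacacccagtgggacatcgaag
TTTCCCGC, TTTGGCGC, TTTCGCGC and TTTGCCGC were searched on both strands, and 744 of the 32851 windows (2.26%) held at least 1 of them. The cell cycle homology element TTTGAA, on either strand, was in 17.9% of windows and in none of these genes. A match is a string of letters and does not show binding.

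Ezh2 had 48.4, 49.3, 41.9 and 43.0 FPKM in relapse mice. It had 17.7, 43.7 and 37.5 FPKM in iCT mice and 47.8, 35.8, 57.2, 44.7 and 49.3 FPKM in vehicle mice. The iCT range overlapped the other two, and its lowest value, in mouse 1, rested on 15.3 implied fragments. Group means were 45.7 ± 3.72 in relapse, 33.0 ± 13.6 in iCT and 47.0 ± 7.77 FPKM in vehicle (SD, n = 4, 3 and 5). The iCT difference from vehicle was -0.58 (SE 0.24, 95% interval -1.09 to -0.07, adjusted p = 0.126 in limma). It depended on single mice: it was -0.19 (adjusted p = 0.490) without iCT mouse 1, -0.72 (adjusted p = 0.0962) without iCT mouse 3, and passed at -0.82 (adjusted p = 0.0290) without iCT mouse 2. Without iCT mouse 2, 24.8% of all genes passed in iCT against vehicle. Ezh2 was 0.55 higher in relapse than in iCT (95% interval 0.01 to 1.09, adjusted p = 0.163), or 0.17 higher without iCT mouse 1. Relapse and vehicle differed by -0.03 (95% interval -0.50 to 0.44). Sums of 10 proliferation markers were 1141 to 1211 FPKM in relapse, 1122 to 1244 in iCT and 1033 to 1242 in vehicle. Pcna, Mcm5 and Mcm2 led these sums, at means of 492, 178 and 131 FPKM over the 12 libraries. In iCT against vehicle 1 of the 10 passed as higher and 1 as lower, where 9.62% of all genes passed. The sums thus do not show how single markers moved.

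Kdm1a (chr4:136550533-136602723) encodes LSD1, which acts with the CoREST proteins. It had 19.5, 18.1, 18.4 and 20.8 FPKM in relapse mice. It had 29.1, 15.1 and 13.7 FPKM in iCT mice and 13.5, 13.4, 12.7, 15.7 and 17.1 FPKM in vehicle mice. Every relapse mouse lay above every vehicle mouse, and iCT mouse 1 stood above all others. The relapse difference from vehicle was 0.39 (SE 0.19, 95% interval -0.01 to 0.79, adjusted p = 0.361). The iCT difference was 0.32 (95% interval -0.11 to 0.76, adjusted p = 0.293) and 0.00 without iCT mouse 1. Relapse exceeded iCT by 0.07 (95% interval -0.39 to 0.53), and by 0.39 (adjusted p = 0.0962) without that mouse.

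Set against all genes tested, the comparison of relapse with vehicle had 0 of 9 genes past the threshold, and 0% of the 11019 genes passed it. At an unadjusted p under 0.05 there were 3 of 9 (Kmt2a, Dot1l and Aff1) against 14.6% of all genes. Groups did not overlap for 4 of 9, all higher in relapse, against 9.72% of all genes that were higher without overlap and 13.7% in either direction. When only the relapse and vehicle libraries entered the limma fit, 595 genes (5.4%) passed but still 0 of the 9, with adjusted p-values of 0.0514 for Kdm1a, 0.0590 for Kmt2a, 0.0615 for Dot1l and 0.0685 for Aff1. In that fit 5 of 9 had an unadjusted p under 0.05, against 25% of all genes. Weighting libraries by their quality gave 971 genes (8.81%) and again 0 of 9.

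In iCT against vehicle, 0 of 9 genes passed while 9.62% of all genes did, 365 higher and 695 lower. That split was 514 to 621 when libraries were scaled by median of ratios, 526 to 570 when they were quantile normalized and 663 to 626 once trends with length and GC content had been removed. Ezh2 was the single gene of the 9 at an unadjusted p under 0.05, against 29.8% of all genes, and no gene of the 9 had groups without overlap, against 16.1%. The fit of iCT and vehicle alone gave 341 genes (3.09%) and 0 of the 9. The total over all genes also rested on single mice, with 686 genes without iCT mouse 1, 2722 without iCT mouse 2, 618 without vehicle mouse 3 and 569 without vehicle mouse 5. Without iCT mouse 2 the iCT values of Aff1, and without vehicle mouse 2 those of Ezh2, no longer overlapped vehicle. No share over all genes is set beside these left-out results.

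Relapse against iCT also gave 0 of 9, beside 9.72% of all genes (729 higher and 342 lower). The median gene was 0.16 higher on the log2 scale in relapse, against 0.055 when libraries were scaled by median of ratios (491 genes higher, 531 lower) and 0.021 when they were quantile normalized (431 higher, 420 lower). At an unadjusted p under 0.05 there were 3 of 9 (Mllt1, Aff4 and Ezh2), against 29% of all genes. Aff4 was the 1 gene of 9 whose groups did not overlap, against 16.9% of all genes that were higher without overlap and 23.3% in either direction, and its groups overlapped after either scaling and with length and GC trends removed. With those trends removed Ezh2 was instead the 1 gene without overlap, against 10.4% of all genes higher without overlap. The total over all genes was 1855 without iCT mouse 3 and 593, 529, 583 and 536 without relapse mice 1 to 4. The fit of relapse and iCT alone gave 236 genes (2.14%) and 0 of the 9, and precision weights gave 11.1% of all genes and 1 of the 9, Aff4. The relapse and iCT comparisons with vehicle share the vehicle mice, so their values are set side by side and not as independent results.

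**Figure D3:**
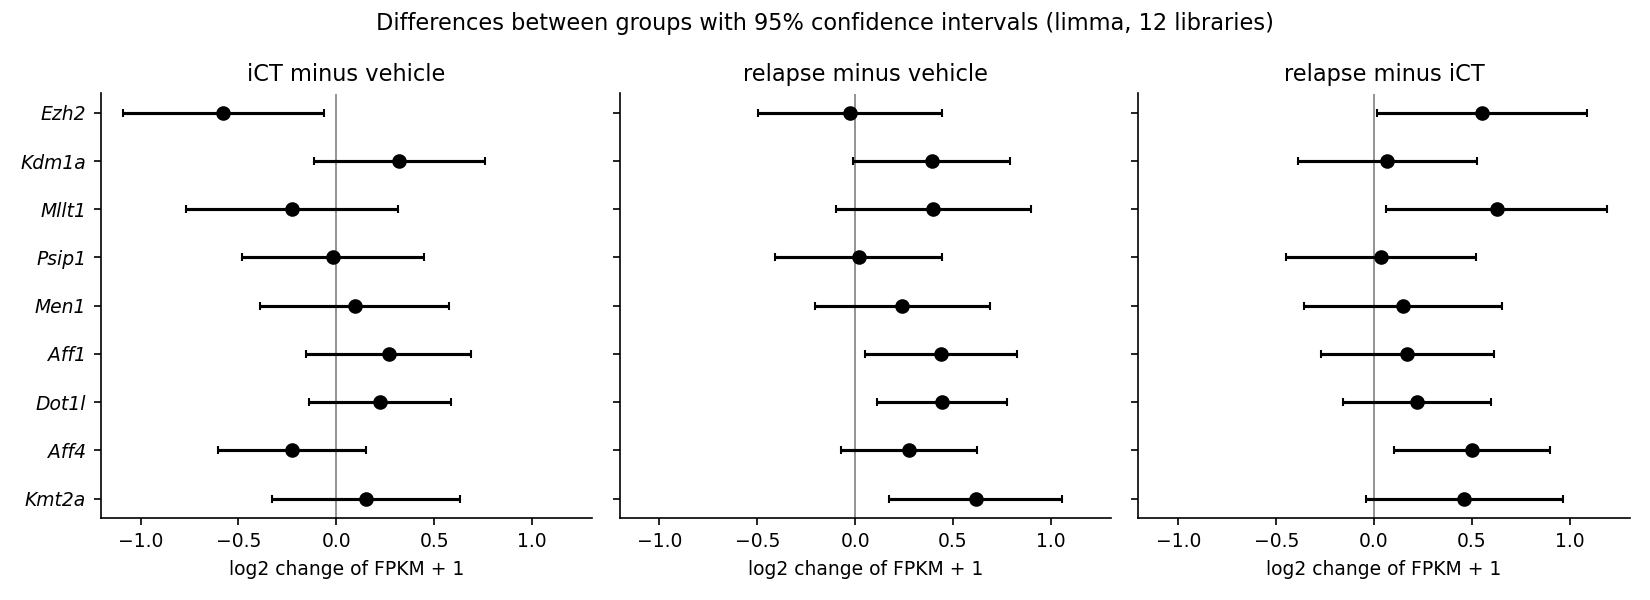
Log2 difference of FPKM + 1 (horizontal axis) with its 95% interval for the 9 tested genes in iCT minus vehicle, relapse minus vehicle and relapse minus iCT, from limma over 12 libraries. In relapse minus vehicle the intervals of Kmt2a, Dot1l and Aff1 lie above 0, in iCT minus vehicle that of Ezh2 lies below it, and in relapse minus iCT those of Ezh2, Mllt1 and Aff4 lie above it.

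Transcript length and base composition moved with the relapse differences. Across the 10595 tested genes with a known length and GC content, the difference of relapse from vehicle had a Spearman correlation of 0.245 with length and 0.353 with GC content. For iCT against vehicle these were 0.067 and 0.179, and for relapse against iCT 0.10 and 0.024, all across genes that share the same libraries. The median difference of relapse from vehicle was -0.06 for transcripts under 1000 bases, 0.20 for those of 6000 to 8000 bases and 0.31 for the 201 genes over 10000 bases. Kmt2a has the longest of the 10 transcripts at 16470 bases, followed by Aff4 at 10099, Aff1 at 8323 and Dot1l at 6808 bases. Mllt1, Psip1, Kdm1a, Men1 and Ezh2 have 3636, 3251, 3028, 3002 and 2787 bases.

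After both trends were removed, the relapse difference from vehicle was 0.20 for Kmt2a, 0.10 for Dot1l, 0.15 for Aff1, 0.15 for Mllt1 and 0.09 for Aff4. It was 0.29 for Kdm1a, whose relapse and vehicle mice still did not overlap, and it was then the single gene of the 9, against 4.36% of all genes that were higher without overlap. Kmt2a, Dot1l and Kdm1a, but not Aff1, were also without overlap under median-of-ratios scaling (6.94% of all genes higher without overlap) and under quantile normalization (7.28%). Removing a trend also removes any difference that long or GC-rich genes share.

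**Figure D4:**
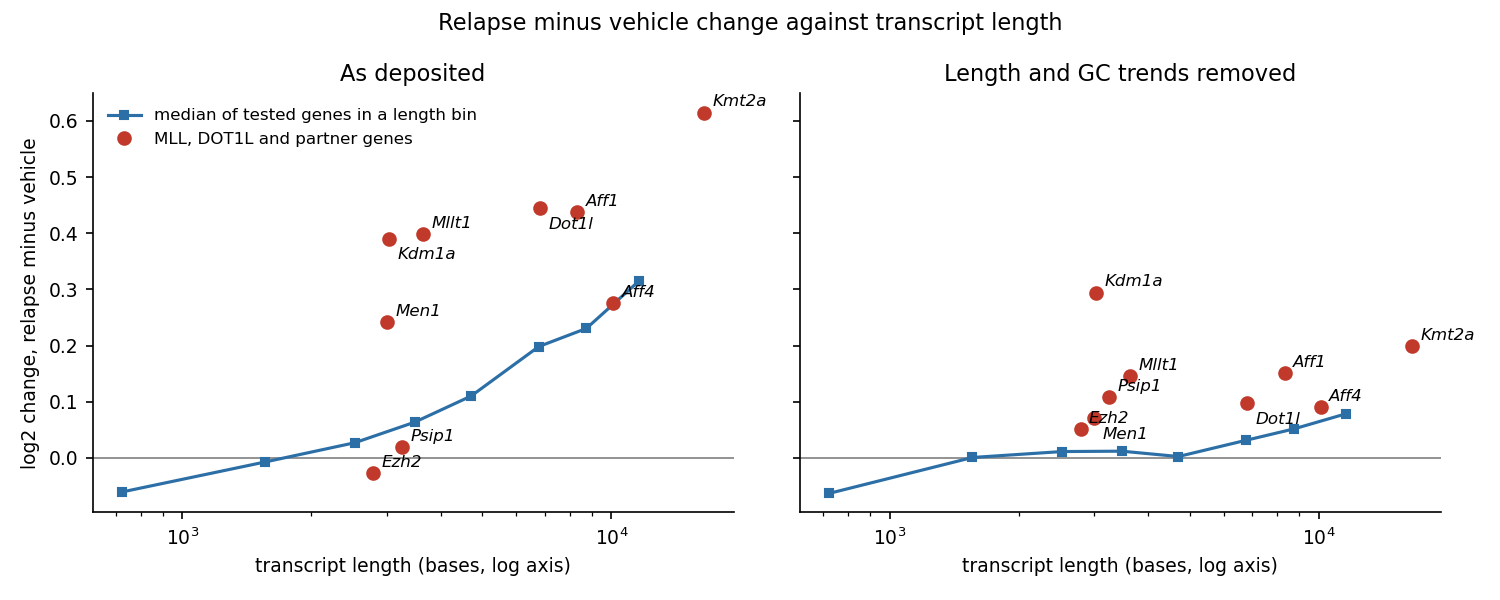
Log2 difference of relapse minus vehicle (vertical axis) against transcript length (horizontal log axis) for the 9 tested genes (red) and the median of tested genes per length bin (blue), before and after removal of the length and GC trends. The blue medians climb from -0.06 to 0.31 before removal, where Kmt2a stands at 0.62, and Kmt2a stands at 0.20 after it.

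The complexes around these genes were read in the same fit. Of the 16 COMPASS subunits and KMT2 paralogs, the partners and relatives of MLL, 0 passed in each comparison. Over all genes 0% passed in relapse against vehicle, 9.62% in iCT against vehicle and 9.72% in relapse against iCT. The median log2 differences of the list were 0.30 (all genes 0.06), 0.33 (all genes -0.08) and 0.13 (all genes 0.16) in the same order. With length and GC trends removed these medians were 0.15, 0.32 and -0.12. Hcfc1, a shared subunit of MLL complexes, averaged 34.1 ± 0.835 FPKM in relapse and 20.3 ± 4.07 in vehicle (SD, n = 4 and 5), a difference of 0.74 with an adjusted p of 0.173. It passed with array weights (adjusted p = 0.0198) and in the fit of relapse and vehicle alone (adjusted p = 0.0263), and was 0.41 (adjusted p = 0.313) with the trends removed. Ncoa6, which belongs to the KMT2C and KMT2D complexes, averaged 5.68 in relapse, 5.25 in iCT and 3.46 FPKM in vehicle, with adjusted p-values of 0.188 and 0.121 for relapse and iCT against vehicle. Paxip1, of the same complexes, differed by 0.54 between iCT and vehicle (adjusted p = 0.0914). Dpy30 and Kdm6a differed by -0.32 and 0.36 between relapse and iCT, with adjusted p-values of 0.167 and 0.174. Dpy30 passed with length and GC trends removed, at -0.39 in relapse against iCT (adjusted p = 0.0167) and 0.29 in iCT against vehicle (adjusted p = 0.0441). Ncoa6 passed in relapse with array weights (adjusted p = 0.0496) and in iCT after quantile normalization (adjusted p = 0.0495). Without iCT mouse 2, Paxip1 and Ncoa6 passed in iCT against vehicle (adjusted p = 0.0355 and 0.0413), where 24.8% of all genes then passed.

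Of 13 tested genes of the super elongation complex and P-TEFb, 0 passed in each comparison, where 0% of all genes passed in relapse against vehicle, 9.62% in iCT against vehicle and 9.72% in relapse against iCT, with medians of 0.22 in relapse against vehicle, -0.14 in iCT against vehicle and 0.32 in relapse against iCT. Supt5, a subunit of the pausing and elongation factor DSIF, averaged 58.5 ± 4.32 FPKM in relapse and 44.5 ± 6.81 in vehicle (SD, n = 4 and 5; difference 0.39, adjusted p = 0.180, or 0.0419 with array weights). Hexim2 and Ccnt1 differed from vehicle by -0.67 and -0.37 in iCT, and Hexim2 and Ell2 differed by 0.71 and 0.69 between relapse and iCT, with adjusted p-values of 0.124 to 0.159. The 6 PAF1 complex genes, whose products bind MLL fusions, also gave 0 in each comparison, with medians of 0.20, -0.03 and 0.16 in the same order. Ctr9 differed from vehicle by 0.52 in relapse and 0.43 in iCT, Paf1 by 0.29 in relapse and Rtf1 by -0.20 in iCT. Ctr9 passed in relapse against vehicle with array weights (adjusted p = 0.0435) and in the fit of those groups alone (adjusted p = 0.0404). Rtf1 and Leo1 differed by 0.41 and 0.42 between relapse and iCT, and the smallest adjusted p of the complex was 0.0834. Single iCT mice decided some of these: without mouse 3 Hexim2 and Rtf1 passed in relapse against iCT (adjusted p = 0.0479 and 0.0471), and without mouse 2 Leo1 did so (0.0231), as did Ctr9 in iCT against vehicle (0.0287). Over all genes, without mouse 2, 14.4% passed in relapse against iCT and 24.8% in iCT against vehicle. Without mouse 3, 1855 of 10932 genes passed in relapse against iCT.

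Among 6 tested DOT1L partners and repressors bound by AF9, 2 rose in relapse relative to iCT, where 6.62% of all genes did, and the median was 0.40 against 0.16 over all genes. Bcor, a Polycomb corepressor that binds AF9, had 16.2, 16.1, 19.1 and 16.5 FPKM in relapse, 10.2, 8.71 and 13.4 FPKM in iCT and 7.25, 7.75, 7.89, 9.65 and 10.2 FPKM in vehicle mice. Relapse lay above both other groups without overlap. Bcor was 0.63 higher than in iCT (SE 0.16, adjusted p = 0.0320) and 0.92 higher than in vehicle (SE 0.14, adjusted p = 0.173, or 0.0086 to 0.0459 without iCT mouse 1, with array or precision weights and in the fit of relapse and vehicle alone). Mllt10, which encodes AF10, the cofactor of DOT1L, had 11.8, 10.7, 9.48 and 10.2 FPKM in relapse, 5.60, 7.55 and 8.27 FPKM in iCT and 8.48, 7.25, 8.21, 8.47 and 9.07 FPKM in vehicle mice. Relapse lay above both other groups here too, and exceeded iCT by 0.51 (SE 0.15, adjusted p = 0.0498) and vehicle by 0.31 (adjusted p = 0.309). Neither relapse to iCT call held without iCT mouse 1 (adjusted p = 0.0598 for Bcor and 0.106 for Mllt10). Without iCT mouse 2 or any 1 relapse mouse that of Bcor was lost too, and without any 1 relapse or vehicle mouse that of Mllt10, with adjusted p-values of up to 0.0864 and 0.127. With length and GC trends removed, 0 of the 6 passed. Both calls were also lost in the fit of relapse and iCT alone (adjusted p = 0.101 for Bcor and 0.165 for Mllt10), under median-of-ratios scaling (0.0615 and 0.0994), under quantile normalization (0.0600 and 0.142) and with array weights (0.121 and 0.179). In iCT against vehicle 0 of 6 passed, where 9.62% of all genes did, and Cbx8 differed by -0.29 (adjusted p = 0.176).

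Of 10 tested LSD1 and CoREST partners, 4 rose in relapse relative to iCT and 0 fell, where 6.62% of all genes rose, with a median of 0.47 against 0.16 over all genes. With length and GC trends removed 1 rose, Rcor3, where 4.6% of all genes did, and in the fit of relapse and iCT alone none of the 4 passed (adjusted p = 0.0864 for Rcor3, 0.125 for Phf21a, 0.129 for Rcor1 and 0.135 for Zmym3). Rcor1, the main CoREST scaffold, had 21.5, 17.8, 17.5 and 19.5 FPKM in relapse, 10.5, 9.93 and 16.4 FPKM in iCT and 14.3, 14.5, 14.8, 13.5 and 17.2 FPKM in vehicle mice (relapse minus iCT 0.63, SE 0.16, adjusted p = 0.0324). All relapse mice lay above all mice of both other groups. Rcor3, its paralog, had 4.23, 3.21, 2.89 and 3.27 FPKM in relapse, was listed at 0 in iCT mouse 1 with 1.72 and 0.9999 FPKM in iCT mice 2 and 3, and had 2.24, 1.999, 3.05, 3.45 and 2.57 FPKM in vehicle mice. Relapse lay above iCT without overlap, as did vehicle. Without iCT mouse 1, Rcor3 exceeded iCT by 0.91 in relapse (adjusted p = 0.0267), against 1.31 (adjusted p = 0.0171) with it. Phf21a, a reader of unmethylated H3 in the LSD1 complex, averaged 2.31 ± 0.591 FPKM in relapse and 0.871 ± 0.424 in iCT (difference 0.83, adjusted p = 0.0266), and Zmym3, a zinc finger subunit, averaged 8.60 ± 0.976 and 5.06 ± 1.61 FPKM (difference 0.69, adjusted p = 0.0340; SD, n = 4 and 3). Without iCT mouse 1, Rcor3 was the single gene of the list to pass, with adjusted p-values of 0.0792 for Rcor1, 0.0600 for Phf21a and 0.0825 for Zmym3. With the trends removed these were 0.0614, 0.0838 and 0.107, and with array weights 0.199, 0.1001 and 0.119. Median-of-ratios scaling ended the calls of Rcor1 and Zmym3 (adjusted p = 0.0591 and 0.0592), and quantile normalization those of Rcor1, Zmym3 and Phf21a (0.0573, 0.0883 and 0.243). Of the other single libraries, iCT mouse 2 and each relapse mouse also carried the call of Rcor1, relapse mice 2, 3 and 4 that of Phf21a, and vehicle mouse 4, iCT mouse 2 and relapse mice 1, 2 and 3 that of Zmym3 (adjusted p up to 0.0870, 0.0770 and 0.0850 without them). Against vehicle, 0 of the 10 passed in relapse, as did 0% of all genes. Rcor1 differed there by 0.34 and Zmym2 by 0.27. In iCT against vehicle 1 fell, Rcor3 by 1.04 (adjusted p = 0.0359), where 6.31% of all genes fell. With length and GC trends removed Zmym3 fell too (-0.56, adjusted p = 0.0416). Rcor3 did not pass in the fit of iCT and vehicle alone (adjusted p = 0.109) or with array or precision weights (0.0762 and 0.0606), and it no longer passed without iCT mouse 1 (-0.64, adjusted p = 0.0853) or without vehicle mouse 1, 3, 4 or 5 or relapse mouse 2, 3 or 4 (adjusted p up to 0.0731).

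**Figure D5:**
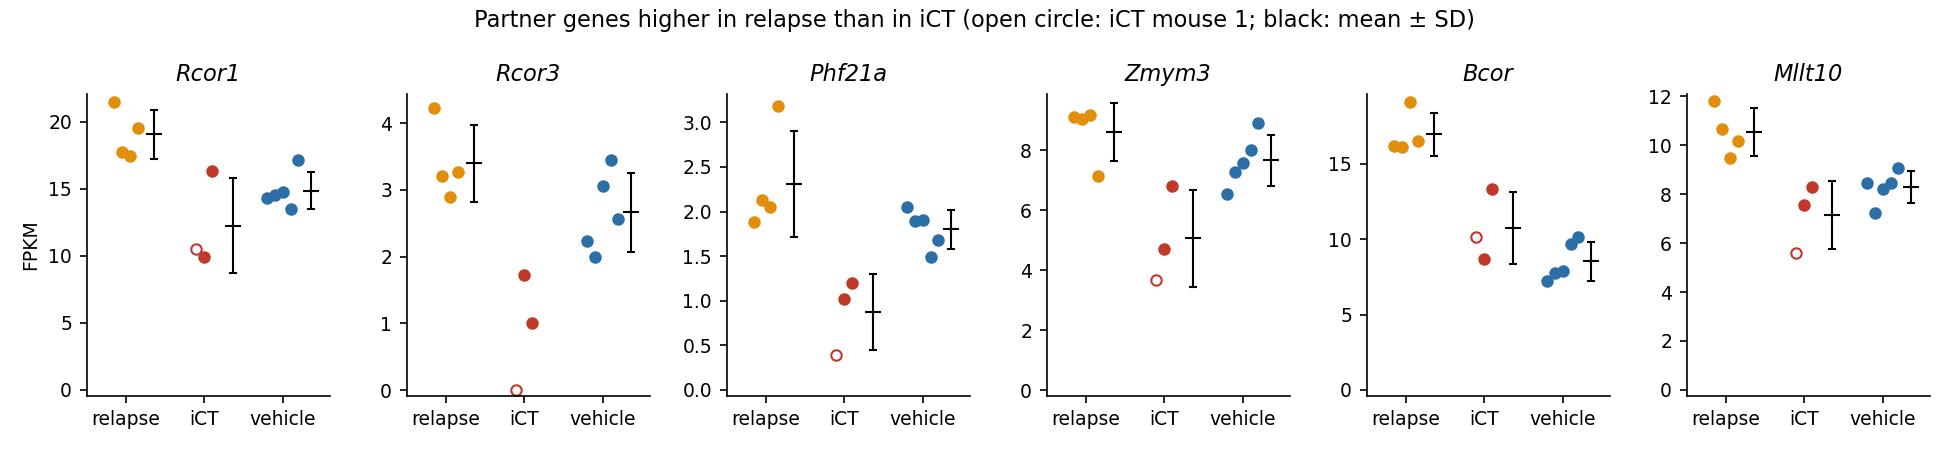
FPKM (vertical axis, from 0) of 4 LSD1 partners and of Bcor and Mllt10 in each relapse, iCT and vehicle mouse, with mean and SD beside the points except where a library is listed at 0. The 4 relapse points lie above the 3 iCT points for all 6 genes, and above the 5 vehicle points as well for Rcor1, Bcor and Mllt10.

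Of 10 tested PRC2 and accessory subunits, the partners of Ezh2, 0 passed in each comparison. Over all genes 0% passed in relapse against vehicle, 9.62% in iCT against vehicle and 9.72% in relapse against iCT. The list medians were -0.00, -0.12 and 0.13 in the same order, against 0.06, -0.08 and 0.16 over all genes. Rbbp4, the histone-binding subunit, averaged 100.1 ± 13.1 FPKM in iCT and 123 ± 6.64 in vehicle (SD, n = 3 and 5; difference -0.30, adjusted p = 0.0577), and Suz12, a core subunit, differed by -0.31 (adjusted p = 0.193). Rbbp4 passed at -0.41 (adjusted p = 0.0088) without iCT mouse 2, and Rbbp7, its paralog, named after its values were seen, passed at 0.34 (adjusted p = 0.0451) without iCT mouse 1. Over all genes 24.8% passed in iCT against vehicle without mouse 2 and 6.26% without mouse 1. With length and GC trends removed, Rbbp7 also passed in iCT against vehicle (0.31, adjusted p = 0.0450). Jarid2, a cofactor that guides PRC2, averaged 13.5 ± 0.205 FPKM in relapse and 9.49 ± 1.59 in vehicle (SD, n = 4 and 5; difference 0.48, adjusted p = 0.195), and passed with array weights (adjusted p = 0.0495) and in the fit of those groups alone (0.0403). Phf19, a Polycomb-like subunit, differed by 0.20 between relapse and vehicle and by 0.38 between relapse and iCT (adjusted p = 0.0795). Ezh1, the paralog of Ezh2, averaged 7.70 ± 0.560 FPKM in relapse and 5.22 ± 1.61 in iCT (SD, n = 4 and 3; difference 0.51, adjusted p = 0.0768), and passed at 0.70 (adjusted p = 0.0189) without iCT mouse 3. Without that mouse 1855 of 10932 genes passed in relapse against iCT.

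Of 12 tested known targets of MLL fusions, 0 passed in relapse or iCT against vehicle, where 0% and 9.62% of all genes did, and 1, Pbx3, in relapse against iCT, where 9.72% did, with medians of 0.26, -0.07 and 0.28. Pbx3, a cofactor of HOX proteins, had 38.1, 24.2, 30.9 and 35.1 FPKM in relapse, 6.63, 17.0 and 23.0 FPKM in iCT and 30.6, 25.4, 25.3, 26.3 and 27.2 FPKM in vehicle mice. The iCT mice lay below all others. Relapse exceeded iCT by 1.13 (SE 0.30, adjusted p = 0.0329), or by 0.65 (adjusted p = 0.0429) without iCT mouse 1, and the call was lost without relapse mouse 1, 3 or 4 or vehicle mouse 5 (adjusted p up to 0.0847), in the fit of relapse and iCT alone (0.139) and with array weights (0.147). Without iCT mouse 1, Myb, a transcription factor of blood progenitors, also passed in relapse against iCT (0.38, adjusted p = 0.0431), and with length and GC trends removed Bcl2, an inhibitor of cell death, was lower in relapse (-1.25, adjusted p = 0.0276); both were named after their values were seen. The iCT difference of Pbx3 from vehicle was -0.91 (adjusted p = 0.0623), and it passed at -1.05 (adjusted p = 0.0389) without iCT mouse 2 and at -1.25 (adjusted p = 0.0185) without iCT mouse 3. Over all genes 24.8% passed in iCT against vehicle without mouse 2, and 1218 of 10932 without mouse 3. Hoxa9, the leading fusion target, averaged 57.7 ± 8.22 in relapse, 63.7 ± 10.6 in iCT and 52.8 ± 6.75 FPKM in vehicle, and Meis1, its cofactor, 18.9 ± 5.13, 11.8 ± 2.95 and 14.5 ± 2.26 FPKM (SD, n = 4, 3 and 5), with no adjusted p under 0.10 for either, although Meis1 passed in relapse against iCT (0.82, adjusted p = 0.0452) without relapse mouse 2. Hoxa7 differed from vehicle by 0.49 in relapse and 0.47 in iCT, and Jmjd1c by 0.51 in relapse (adjusted p = 0.230, 0.122 and 0.201). Cdkn1a, the p53 target that halts the cell cycle, averaged 18.4 ± 3.72 FPKM in relapse, 89.9 ± 16.7 in iCT and 15.4 ± 3.40 in vehicle, and rose in iCT by 2.48 (adjusted p = 4.89e-05).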

How the data were processed

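RNA-seq was measured in 12 libraries, 1 per mouse, grouped by their sample titles. The authors deposited Cufflinks gene tables in FPKM with the bounds of a 95% interval, per the file headers. Per the submitters' processing notes, STAR and Cufflinks were used. The sources used here give no version, option or strandedness. Although mm9 is the build in those notes, 22890 of 23028 symbols compared (99.4%), and all 10 genes, lay on the gene of that name in GRCm38, which was used. Each table held 24883 entries, and 2 with a failed estimate were left out. No pair of libraries was identical (0 pairs). Implied fragments were computed as the square of 2 FPKM divided by the half-width of the interval and cover counting error only.

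The 11019 genes that reached 1 FPKM in 3 or more libraries entered limma 3.58.1 (R 4.3.3) on the log2(FPKM + 1) scale. A single model of 12 libraries had group as its term and a variance trend, with Benjamini-Hochberg adjustment over all genes at 0.05. This scale understates changes of low genes. The procedure was run on simulated data with known changes as a check of the code, and the share of changes found is not reported here. The settings varied 1 at a time were the pseudocount (0.1 or 0.5), the filter (none, or 5 FPKM), the scaling (median of ratios or quantile), weights (array weights with statmod 1.5.0, or precision weights), the variance trend, the groups in the fit, a mouse-number block, removal of length and GC trends (96.2% of genes had both values), and the omission of each library. Precision weights took the implied fragments of a gene over all libraries, shared out by library depth. A spread between mice common to all genes was added to the resulting counting error. The labels do not say whether the mice of a group carried separate leukaemias, so p-values measure the spread between these mice.

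The genes and lists were chosen with earlier results of these data known. All 10 genes were named, and from each list up to 4 that passed, or else the 2 with the smallest p, besides Hoxa9, Meis1 and Cdkn1a. A gene that this rule named is not reported here. Genes most alike in pattern were to be named for those of the 10 that passed, and none did. Promoters came from RefSeq (GRCm38.p6), with 13 windows for 9 of the genes.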

Additional observations from a re-analysis of the deposited data

Results flagged for a closer look

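Among 96 groups of 4 or 5 mice checked for a single distant value, 5 had one, and chance alone gives about 1 in 20. Paf1 stood at 21.4 FPKM in 1 vehicle mouse, with the others at 30.3 to 33.5. In 1 relapse mouse each, Leo1 stood at 17.7 FPKM (others 15.7 to 15.9), Bcor at 19.1 (others 16.1 to 16.5), Zmym3 at 7.14 (others 9.02 to 9.16) and the log2 ratio of Ezh2 to Ezh1 at 2.74 (others 2.50 to 2.52).

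The changes from vehicle differed between relapse and iCT for 8 of the genes named (6 partners of DOT1L, AF9 or LSD1, the fusion target Pbx3 and the p53 target Cdkn1a), by the limma comparison of relapse with iCT at an adjusted p under 0.05. The log2 differences of relapse minus iCT were 0.63 for Bcor, 0.51 for Mllt10, 1.31 for Rcor3, 0.63 for Rcor1, 0.83 for Phf21a, 0.69 for Zmym3, 1.13 for Pbx3 and -2.23 for Cdkn1a. In each of these 8, no relapse mouse overlapped an iCT mouse. Those other than Cdkn1a met the naming rule by passing this same comparison, so the count of 8 was largely fixed in advance. Over all genes tested, 9.72% passed it and 23.3% had groups without overlap. In the fit of relapse and iCT alone and with a block on mouse number, Cdkn1a passed and the other 7 did not (adjusted p of 0.0864 to 0.165 and 0.0871 to 0.177). Without iCT mouse 1, and with length and GC trends removed, those that passed were Rcor3, Pbx3 and Cdkn1a.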

How the results depend on the processing

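The vehicle, iCT and relapse mice carry the numbers 1 to 5, and deviations of same-numbered mice correlated at -0.09 to 0.10. No correlation of differently numbered mice is set beside these, so they do not decide whether the numbers pair the samples. With a block on mouse number, 197 genes passed in iCT against vehicle, 0 in relapse against vehicle and 372 in relapse against iCT, with 0 of the 9 genes in each.

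Over all genes, array weights gave 457, 971 and 603 calls in iCT against vehicle, relapse against vehicle and relapse against iCT, and a fit of only the groups compared gave 341, 595 and 236. In relapse against vehicle, 1 gene passed with no filter, 6 with precision weights and 2 after trends were removed. With single libraries left out the 3 counts ran from 569 to 2722, from 0 to 5 and from 529 to 1855. Of the 9 genes, 0 to 1 passed in iCT against vehicle with single libraries left out (Ezh2 without iCT mouse 2), and 1 in relapse against iCT with precision weights (Aff4). Over all genes 24.8% passed in the former setting, without iCT mouse 2, and 11.1% in the latter. Groups without overlap numbered 1 of 9 in relapse against vehicle after trends were removed (9.19% of all genes). In relapse against iCT they numbered 0 after either scaling (21.9% of all genes with median of ratios, 19.5% with quantile normalization). With single libraries left out they numbered 0 to 1 in iCT against vehicle and 1 to 4 in relapse against iCT, with 3 without iCT mouse 1, 2 without iCT mouse 2, 4 without iCT mouse 3 and 2 without relapse mouse 4. Leaving out a mouse can end an overlap for any gene. No share over all genes is set beside these left-out counts, so they are not read as a result about the 9 genes.

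Of the fitted differences of the 9 genes under the alternatives, 602 kept direction and side of the threshold, 38 changed direction and 2 came to pass. For iCT against vehicle, Men1 was -0.18 with array weights and -0.10 with precision weights, Mllt1 0.057 and Kdm1a -0.032 with array weights, and Psip1 0.031, 0.0030 and 0.20 with median-of-ratios scaling, quantile normalization and trends removed. With single libraries left out the ranges crossed 0 for Kmt2a (-0.063 to 0.30), Men1 (-0.23 to 0.27), Psip1 (-0.32 to 0.27) and Mllt1 (-0.46 to 0.15). For relapse against vehicle, Psip1 was -0.049 and -0.050 after the same scalings and ran from -0.046 to 0.099 with libraries left out, and Ezh2 was 0.051 with trends removed and ran from -0.12 to 0.046. For relapse against iCT, Psip1 was -0.080, -0.053 and -0.096 and Kdm1a -0.049, -0.020 and -0.11 under the same 3 settings, Men1, Dot1l and Aff1 were -0.052, -0.041 and -0.072 with trends removed, and Aff1 was -0.0086 with array weights. Left-out libraries gave -0.029 to 0.47 for Men1, -0.25 to 0.34 for Psip1, -0.062 to 0.38 for Aff1 and -0.12 to 0.39 for Kdm1a. The causes were not tested.

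With 3 iCT mice, 1 of them shallow, differences such as the 0.58 of Ezh2 could not be told from the spread between mice. Mllt3, tested only with no filter, differed by 0.15 in relapse and -0.29 in iCT against vehicle and by 0.44 between relapse and iCT (adjusted p = 0.747, 0.309 and 0.152 in limma), at a level of at most 21.4 implied fragments.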
